A study of Rattus norvegicus with 9 samples.

Results

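Border macrophages are the macrophages that line vessels and surfaces of the nervous system, among them perivascular macrophages and, in the eye, the hyalocytes of the vitreous cortex. They carry CD11b as microglia do, and they differ from microglia by scavenger receptors, lectins and secreted factors through which they take up material from blood and tissue fluid. The 10 genes described here are markers of these cells: Cd163, Lyve1, Mrc1, Stab1 and Colec12 (receptors), Fcna, Cfd, F13a1 and Pf4 (secreted proteins) and Ms4a7 (a membrane protein). They were chosen by a rule that named them with earlier results of the diabetic against control comparison of these libraries in view, so their differences between the groups are a description and carry no test here. All 10 were in the table of 28343 genes, and all 10 were among the 11748 genes that passed the filter on low counts.

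The libraries came from Dark Agouti rats, an inbred strain, in 2 groups. The diabetic group (4 libraries, numbered 1, 2, 4 and 5) received streptozotocin, which destroys insulin-producing cells, at 55 mg/kg at an age of 8 to 10 weeks, with 2 units of insulin given when blood glucose exceeded 30 mmol/l. The control group (5 libraries, numbered 1, 3, 4, 5 and 6) received citrate buffer, both groups were fasted for 12 hours beforehand, and retinas were collected 4 weeks later. CD11b-labelled cells sorted from papain-digested retina were sequenced after amplification of their RNA. The labels call them isolated retinal microglia and do not say whether a library came from 1 rat or from several, so p-values measure the spread between these libraries.

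Total counts were 9156591 to 11332823 per control library and 6228756 to 9629829 per diabetic library. The microglial genes Cx3cr1, P2ry12 and Tmem119 were at 1368 CPM or more in each library (counts per 1e6 counts, scaled by TMM factors), while Siglech, a further microglial marker, was listed at 0 in all of them. The 10 border macrophage genes together held 0.0468% to 0.102% of the counts in control and 0.0963% to 0.204% in diabetic libraries. Their summed level was 663 ± 205 CPM (SD, n = 5) without diabetes and 1344 ± 450 CPM (SD, n = 4) with it. The groups overlapped by 1 library each: control 3, at 1005 CPM, lay above diabetic 2, at 901 CPM. In sorted bulk cells, more cells of a type and more RNA per cell cannot be told apart.

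**Figure D1:**
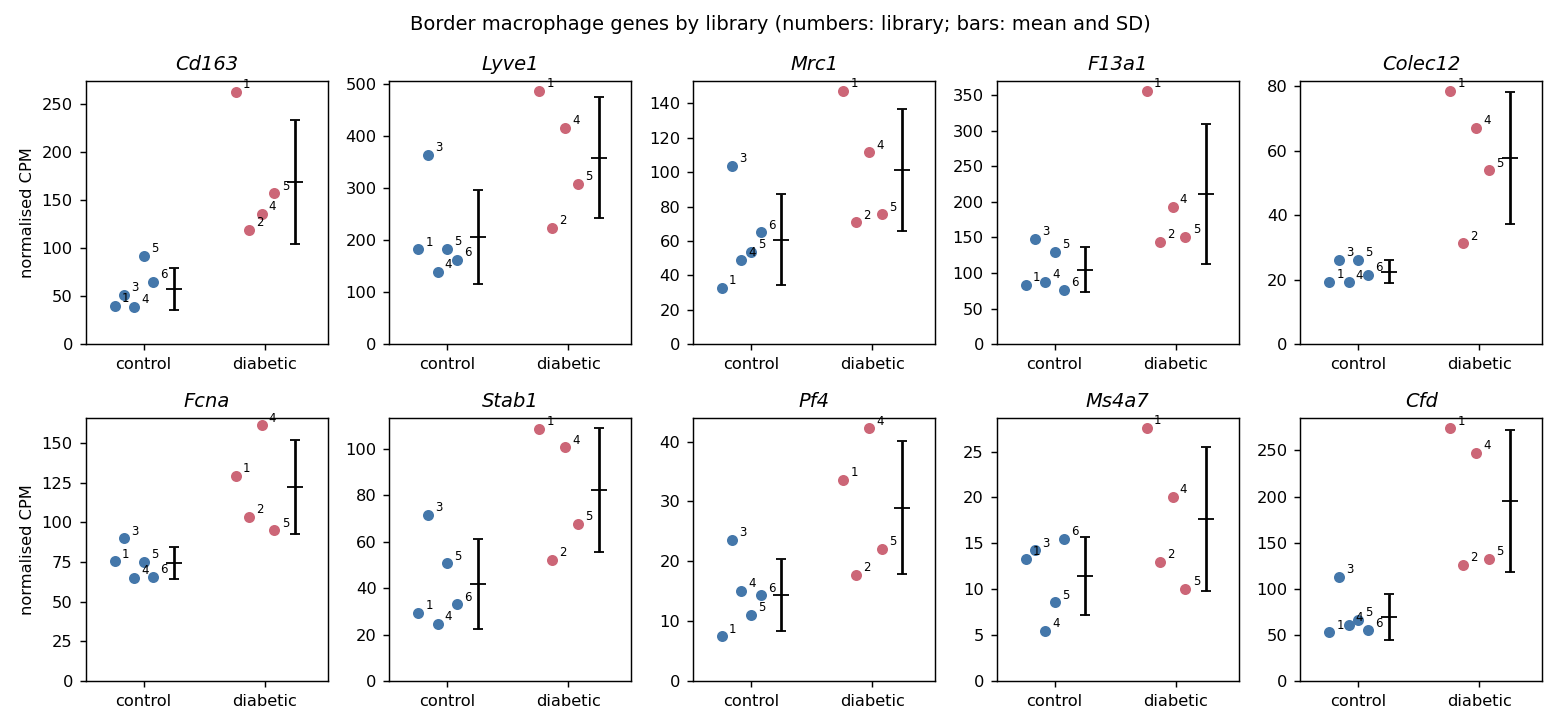
Normalised CPM of the 10 border macrophage genes (y axis, from 0) in control and diabetic libraries (x axis). Each point is a library with its number, and the bar beside each group is the mean with the SD. For Cd163, Colec12, Fcna and Cfd all 4 diabetic points lie above all 5 control points, and control 3 and diabetic 1 are the highest points of their groups for most genes.

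The bases just before the start of transcription are shown for Cd163, the gene with the largest difference, and for Mrc1 and F13a1. The latter were picked because they hold GAGGAA, a run that contains GGAA, the core of ETS sites. PU.1, a transcription factor of the macrophage lineage, is of the ETS family. Any part of it in the levels of these genes was not tested. The sequences are the 250 bases upstream of the start in RefSeq's GRCr8 build of the rat genome, all on the plus strand, and capitals mark GAGGAA or its reverse complement TTCCTC.
Cd163 (chr4:158770524-158770773): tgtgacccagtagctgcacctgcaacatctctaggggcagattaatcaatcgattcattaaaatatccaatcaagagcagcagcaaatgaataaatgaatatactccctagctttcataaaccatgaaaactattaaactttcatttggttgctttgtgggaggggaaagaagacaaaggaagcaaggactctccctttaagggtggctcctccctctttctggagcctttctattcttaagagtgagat
Mrc1 (chr17:82157475-82157724): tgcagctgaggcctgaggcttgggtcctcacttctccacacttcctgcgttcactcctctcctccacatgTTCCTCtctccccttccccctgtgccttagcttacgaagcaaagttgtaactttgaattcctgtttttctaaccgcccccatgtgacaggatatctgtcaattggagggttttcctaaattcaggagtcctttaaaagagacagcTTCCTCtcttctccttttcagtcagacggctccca
F13a1 (chr17:28020947-28021196): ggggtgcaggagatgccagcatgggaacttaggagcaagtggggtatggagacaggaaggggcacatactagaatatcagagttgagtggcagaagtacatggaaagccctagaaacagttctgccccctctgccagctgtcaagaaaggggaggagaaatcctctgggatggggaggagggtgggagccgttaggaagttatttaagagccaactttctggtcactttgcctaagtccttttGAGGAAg

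A promoter of this kind was held for 9 of the 10 genes. GAGGAA, searched on both strands, occurred in 5 of them (Colec12, F13a1, Fcna, Mrc1 and Stab1), against 23.3% of all 33469 rat promoters of the same length. Fcna held 3 copies, all in the forward direction, and Mrc1 held 2 in the reverse direction. In F13a1 the GAGGAA run ended 1 base before the start of transcription. The longer PU.1 box, GAGGAAGT, which contains GAGGAA, occurred in 0 of the 9, against 2.04% of all promoters. At the GAGGAA of F13a1 the window ended before the full box, so a match there could not be read. TGCTGAC, the core of a MAF site, and TGACTCA, the AP-1 site, occurred in 0 of the 9, against 3.53% and 4.05% of all promoters. TATAAA, the run of a TATA box, also searched on both strands, occurred in 1 (Fcna), against 12.9%. The match in Fcna was on the reverse strand only, so it is not read as a TATA box of that gene. The 9 windows ranged from 40.0% to 73.6% GC around a median of 51.2% for all promoters. A match is a run of letters and not a bound site.

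The receptors of scavenging are described first. Cd163 takes up complexes of haemoglobin and haptoglobin. It stood at 39.8, 51.4, 38.8, 92.1 and 64.9 CPM in controls 1, 3, 4, 5 and 6, and at 262, 119, 136 and 157 CPM in diabetic 1, 2, 4 and 5. All 4 diabetic libraries were above all controls, with the nearest pair being control 5 and diabetic 2. The mean was 57.4 ± 22.1 CPM (SD, n = 5) against 168 ± 64.4 CPM (SD, n = 4), a 2.93-fold ratio and a log2 fold change of 1.55 (SE 0.47), the largest of the 10 genes.

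Colec12 encodes a scavenger receptor with a C-type lectin domain. Its levels were 19.4, 26.1, 19.2, 26.2 and 21.4 CPM in controls 1, 3, 4, 5 and 6 and 78.6, 31.3, 67.1 and 53.9 CPM in diabetic 1, 2, 4 and 5. The controls spanned only 1.37-fold, the tightest range among the 10 genes, and every diabetic library was above them, diabetic 2 by the smallest margin. The log2 fold change was 1.36 (SE 0.35).

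Lyve1 is a hyaluronan receptor found on border macrophages and on lymphatic endothelium. It was at 183, 364, 139, 183 and 163 CPM in controls 1, 3, 4, 5 and 6 and at 488, 224, 417 and 308 CPM in diabetic 1, 2, 4 and 5. Control 3 lay well above the other controls and above diabetic 2 and 5, so the groups overlapped. The log2 fold change was 0.80 (SE 0.38).

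Mrc1, the mannose receptor CD206, was at 32.7, 104, 49.0, 53.7 and 65.0 CPM in controls 1, 3, 4, 5 and 6 and at 147, 70.9, 111 and 75.5 CPM in diabetic 1, 2, 4 and 5. Stab1, a scavenger receptor of macrophages and sinusoidal endothelium, was at 29.3, 71.6, 24.7, 50.7 and 33.0 CPM in the same order of controls and at 109, 52.1, 101 and 67.9 CPM in the diabetic libraries. In both genes control 3 lay above diabetic 2 and 5 and below diabetic 1 and 4. Their log2 fold changes were 0.73 (SE 0.40) for Mrc1 and 0.97 (SE 0.43) for Stab1.

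Among the secreted proteins, Cfd is complement factor D, the protease that starts the alternative complement pathway and is also known as adipsin. It was at 52.8, 113, 60.9, 66.1 and 55.0 CPM in controls 1, 3, 4, 5 and 6 and at 274, 126, 247 and 132 CPM in diabetic 1, 2, 4 and 5. The diabetic libraries fell into a higher pair (1 and 4) and a lower pair (2 and 5), all above the controls. The log2 fold change was 1.49 (SE 0.46), or 2.81-fold between the means.

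Fcna encodes ficolin A, a lectin of the complement lectin pathway. It was at 75.5, 90.0, 65.0, 75.3 and 65.8 CPM in controls 1, 3, 4, 5 and 6 and at 129, 103, 161 and 95.0 CPM in diabetic 1, 2, 4 and 5. The groups did not overlap, with control 3 and diabetic 5 the nearest libraries. The log2 fold change was 0.72 (SE 0.21), with the smallest standard error of the 10 genes.

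F13a1, the A chain of coagulation factor XIII, was at 83.1, 148, 87.8, 129 and 76.3 CPM in controls 1, 3, 4, 5 and 6 and at 355, 144, 193 and 151 CPM in diabetic 1, 2, 4 and 5. Diabetic 1 was far above the rest, and diabetic 2 lay just below control 3. The log2 fold change was 1.01 (SE 0.40) and was 0.63 without diabetic 1.

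Pf4, the chemokine CXCL4, was at 7.47, 23.6, 15.1, 11.0 and 14.3 CPM in controls 1, 3, 4, 5 and 6 and at 33.6, 17.8, 42.3 and 22.1 CPM in diabetic 1, 2, 4 and 5, on 79 to 340 counts per library. Control 3 lay above diabetic 2 and 5. The log2 fold change was 1.01 (SE 0.41).

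Ms4a7, a membrane-spanning protein of macrophages, was read on 51 to 279 counts per library. It was at 13.3, 14.2, 5.49, 8.57 and 15.5 CPM in controls 1, 3, 4, 5 and 6 and at 27.6, 12.98, 20.1 and 10.0 CPM in diabetic 1, 2, 4 and 5. Diabetic 2 and 5 lay within the control range. Its log2 fold change of 0.63 (SE 0.38) was the smallest of the 10 and was 0.32 without diabetic 1.

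In the edgeR quasi-likelihood fit over all genes with Benjamini-Hochberg adjustment, 0 of the 10 genes passed an adjusted p of 0.05, beside 0.0681% of all genes tested. Their adjusted p-values ran from 0.0608 (Colec12) to 0.343 (Ms4a7). At an adjusted p below 0.1 stood 4 of them as higher (Colec12, Cd163, Fcna and Cfd), beside 1.05% of all genes. At an unadjusted p below 0.05 stood 8 of 10, beside 8.94% of all genes in the same direction. The DESeq2 Wald test called 7 of 10 (all but Lyve1, Mrc1 and Ms4a7), beside 4.88% of the genes it gave an adjusted p. Colec12 also passed in edgeR without diabetic 2 (adjusted p = 0.0139), with upper-quartile factors (0.0426), without factors (0.0279) and without the filter on low counts (0.0371), over a range of 2.85e-05 to 0.340 across its alternatives.

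All 10 genes had a log2 fold change above 0, as did 50.3% of all genes, with a median of 0.99 beside 0.0017 over all genes. In 4 of 10 every diabetic library was above every control, beside 4.27% of all genes. In the authors' deposited table, 7 of the 10 had an adjusted p below 0.05, beside 2.1% of its genes. The log2 fold changes in the authors' deposited table ran from 0.75 for Ms4a7 to 1.67 for Cd163, with a median of 1.09 beside 0.12 over all its genes. These shares describe a list chosen with this comparison known, and nothing is read from them.

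**Figure D2:**
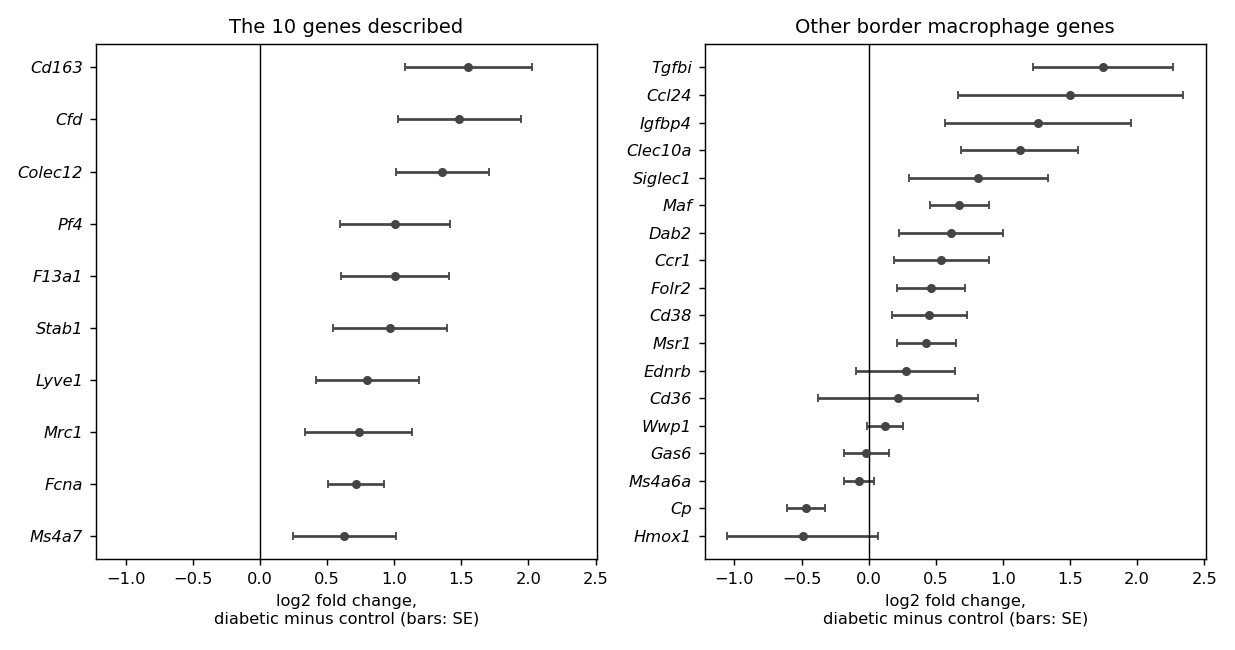
Fitted log2 fold change of diabetic minus control (x axis) with its standard error (bars) for the 10 genes described (left) and for 18 other border macrophage genes that passed the filter (right), 1 gene per row. The 10 genes lie between 0.63 and 1.55, and the other genes spread from -0.49 to 1.75.

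Levels of different genes can be compared only per length, which the transcript assemblies allow for 7 of the 10 genes. The TPM of all assembled pieces over the reference exons, averaged over exon bases, was taken as the level. The reference transcript itself was assembled in 8 of the 9 libraries for Lyve1. For Mrc1 it was assembled in 2, and for the other genes in 3 to 5, so their levels rest partly on other pieces. In control libraries the order was Fcna (49.4 ± 10.5 TPM, SD, n = 5), Cfd (47.5 ± 14.9), Lyve1 (37.0 ± 9.42), F13a1 (21.2 ± 7.66), Pf4 (18.7 ± 6.47), Mrc1 (6.76 ± 3.28) and Ms4a7 (6.09 ± 2.90). Neighbours in this order differed by less than the larger of their SDs, apart from the step from Lyve1 to F13a1 and that from Pf4 to Mrc1.

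In diabetic libraries Cfd led with 139 ± 56.2 TPM (SD, n = 4), followed by Lyve1 (87.2 ± 50.5), Fcna (86.3 ± 18.3), Pf4 (38.5 ± 10.6), F13a1 (35.7 ± 4.41), Mrc1 (13.3 ± 4.95) and Ms4a7 (10.4 ± 7.67). All 4 diabetic libraries were above all controls on this scale for Fcna, Pf4 and Cfd. For Lyve1 diabetic 1 and 4 reached 136 and 125 TPM, while diabetic 2, at 36.9 TPM, lay within the control range.

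On the Rnor6 build of the assemblies, Lyve1 (ENSRNOG00000026902) spans chromosome 1 from 175663266 to 175676699 with 6 exons, and Ms4a7 (ENSRNOG00000020953) lies on the same chromosome from 227491000 to 227506822 with 7 exons. Mrc1 (ENSRNOG00000018251) and F13a1 (ENSRNOG00000015957) are both on chromosome 17, from 81352700 to 81433743 and from 28504623 to 28680362. Fcna (ENSRNOG00000017063) is on chromosome 3 from 2849984 to 2853272, Pf4 (ENSRNOG00000028015) on chromosome 14 from 18848549 to 18849258, and Cfd (ENSRNOG00000033564) on chromosome 7 from 12634170 to 12636004. Apart from the pairs on chromosomes 1 and 17, which are far apart, the genes are on different chromosomes.

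Whether the genes varied together was next asked within the groups, a measure that the difference between the groups does not enter. The log2 CPM of each gene (prior count 2) was reduced by the mean of its group, and the remaining deviations were compared over the 9 libraries. All 45 pairs of the 10 genes had a correlation above 0, with a median Pearson r of 0.66 and a range from 0.11 (Cd163 with Fcna) to 0.92 (Lyve1 with Stab1). Over all 69001878 pairs of tested genes the median was -0.0010 and 49.9% were above 0, and 93.8% of those pairs had an r at or below 0.66. The 10 genes were named with earlier results of these same libraries known. The points also share their libraries, so pairs are not independent, and no p is given.

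**Figure D3:**
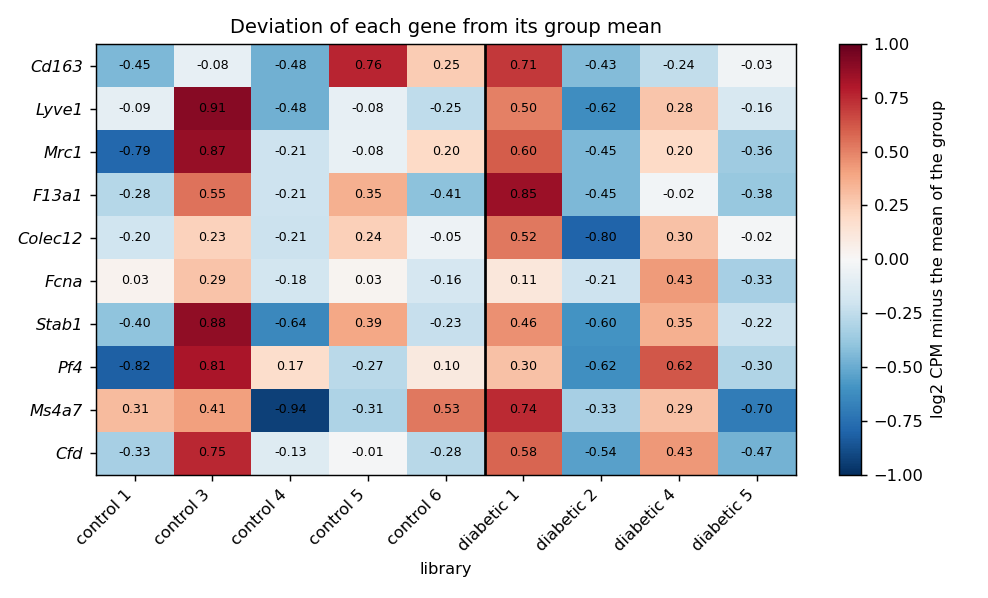
Deviation of log2 CPM from the mean of the group (colour and printed value) for each of the 10 genes (rows) in each library (columns), with a line between the groups. Control 3 is above its group mean for 9 of 10 genes and diabetic 1 for all 10, while diabetic 2 and 5 are below theirs for all 10.

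The deviations ran along whole libraries. Control 3 was above the control mean for 9 of 10 genes, with a median deviation of 0.65 (log2), and it held the highest control value of 7 genes. Controls 1 and 4 were above the mean for 2 and 1 genes. Among the diabetic libraries, diabetic 1 was above the mean for all 10 (median deviation 0.55) and diabetic 4 for 8 (0.29), and diabetic 2 and 5 were above it for 0 (-0.50 and -0.32). Without control 3 and diabetic 1 together, chosen after their values were seen, 44 of 45 pairs stayed above 0 with a median r of 0.56.

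Cfd, Stab1 and Lyve1 followed the other genes most closely, with a median r of 0.84, 0.81 and 0.78 with the other 9. Cd163 followed them least, at 0.36. Its highest control was control 5, by 0.76 above the control mean, where Cfd (-0.013) and Lyve1 (-0.083) were near theirs, while in control 3 Cd163 was at -0.081. Ms4a7, at 0.54, came next from the bottom. Cd163 with Mrc1 was the 1 pair tested, and its r of 0.48 (Spearman's rho 0.48) over the 9 libraries gave p = 0.233 (rho: p = 0.225) in a two-sided exact permutation test within the groups. Without control 4 and diabetic 1, the libraries farthest from the median of Cd163, r was 0.22 (exact permutation p = 0.826). By these tests the correlation of this pair could not be told from that of libraries shuffled within their groups. Leaving out the extremes of Cd163 narrows its range, so the lower r there is not read further.

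**Figure D4:**
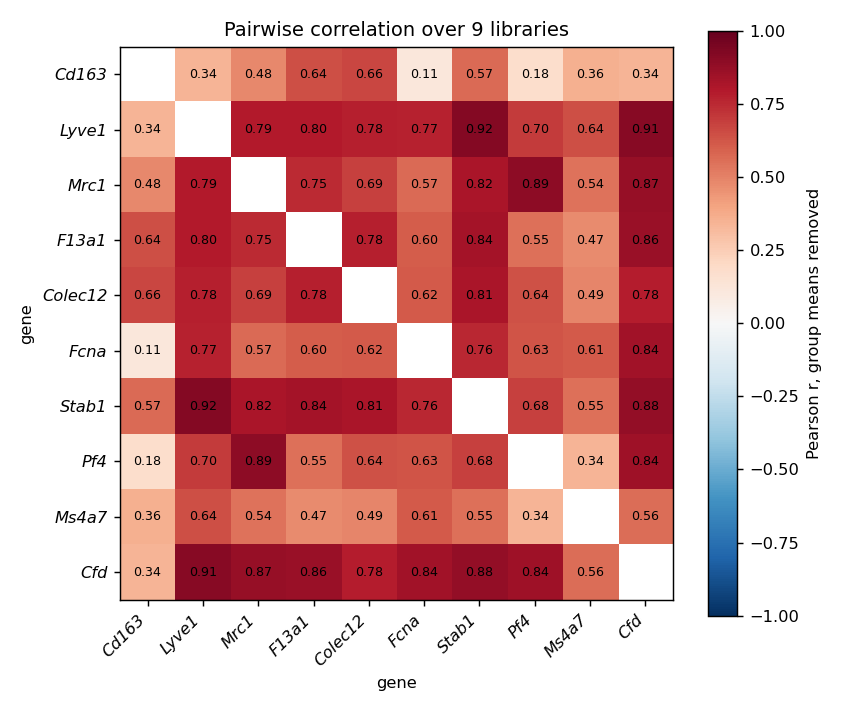
Pearson r between each pair of the 10 genes (rows and columns) over 9 libraries after the group means were removed, as colour and printed value. All values are above 0, and the row of Cd163 holds most of the lowest ones.

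Genes of the same cells that are not among the 10 were read from a further list of 25, of which 23 were in the table and 18 passed the filter. This list, too, was chosen with earlier results of these data known, so its counts are a description. In edgeR's quasi-likelihood test 0 of the 18 passed an adjusted p of 0.05, beside 0.0681% of all genes tested. At an unadjusted p below 0.05, 3 were higher and 1 lower, beside 8.94% and 10.0% of all genes. The DESeq2 Wald test called 4, beside 4.88% of the genes it gave an adjusted p. A log2 fold change above 0 was found for 14, beside 50.3% of all genes, and below 0 for 4. The median was 0.46, beside 0.0017 over all genes. Without diabetic 1 that median was 0.24. The summed level of the 23 genes was 1158 to 1669 CPM in control and 1197 to 1619 CPM in diabetic libraries, so the groups overlapped. Gas6, the highest of the list, was at 371 to 658 and 392 to 502 CPM. Cd209a and Marco, a C-type lectin and a scavenger receptor, had 0 counts in every library. Timd4, a phosphatidylserine receptor of resident macrophages, and Vsig4, a complement receptor, stayed at or below 5 counts.

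Tgfbi, a secreted matrix protein, averaged 4.93 ± 2.62 CPM (SD, n = 5) without diabetes and 16.5 ± 7.76 CPM (SD, n = 4) with it, and every diabetic library was above every control. Its log2 difference was 1.75 (SE 0.52; edgeR adjusted p = 0.0895). Maf, a transcription factor of resident macrophages, averaged 15.2 ± 2.27 and 24.3 ± 5.32 CPM, with control 1 at 18.5 CPM just below diabetic 1 at 18.6 CPM, and a log2 difference of 0.68 (SE 0.22; edgeR adjusted p = 0.0991). Cp, the copper-binding ferroxidase ceruloplasmin, had the opposite sign, averaging 156 ± 18.1 and 112 ± 10.5 CPM, with all diabetic libraries below all controls and a log2 difference of -0.47 (SE 0.14; edgeR adjusted p = 0.0895). These 3 and Clec10a were the genes of the list that DESeq2 called.

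Clec10a, a galactose-binding lectin, averaged 42.7 ± 14.3 and 93.1 ± 42.4 CPM, a log2 difference of 1.12 (edgeR adjusted p = 0.151). Msr1, a scavenger receptor, and Folr2, a folate receptor of border macrophages, had log2 differences of 0.43 and 0.46 (edgeR adjusted p = 0.264 and 0.291). That of Msr1 was 0.18 without diabetic 1.

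The mean standardised deviation of the 10 genes was then used as a profile over the 9 libraries, and 11738 other tested genes were ranked by their r with it. The 7 most alike were Rnf128 (r = 0.96), Axl (0.95), Ednrb (0.94), Cenpf (0.93), Folr2 (0.93), Nus1 (0.93) and Txndc16 (0.92). Ednrb, an endothelin receptor, and Folr2 are on the list of other border macrophage genes and ranked 3 and 5. Dab2 (an endocytic adaptor), Siglec1 (a sialic acid receptor) and Msr1 ranked 26, 30 and 99, so 5 of the 18 stood among the first 100 of 11738. An r above 0 was found for 11 of the 18, beside 50.7% of all ranked genes. Cd36 (-0.42) and Hmox1 (-0.39) had the lowest r of the list. Maf and Tgfbi, which had separated the groups, ranked 6130 and 7155, with r of -0.016 and -0.11. Over the 18 genes the median r was 0.22, beside 0.0074 over all ranked genes.

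Axl, a receptor tyrosine kinase that binds the ligand Gas6, was at 293 to 473 CPM in control and 509 to 779 CPM in diabetic libraries, highest in control 3 and diabetic 1 of their groups. Rnf128, an E3 ubiquitin ligase, was at 57.3 to 69.6 CPM in control and 51.5 to 60.4 CPM in diabetic libraries. Its fitted log2 fold change was -0.13 (SE 0.10; edgeR adjusted p = 0.490), so the gene most like the profile within groups did not have a higher mean in the diabetic group. Ednrb was at 14.0 ± 7.14 and 17.0 ± 6.40 CPM, with 26.1 CPM in control 3 and 24.6 CPM in diabetic 1 against 9.16 to 19.9 CPM in the other libraries.

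Other cell types carry some of the 10 genes, and their markers were read beside them. Pf4 and F13a1 are also genes of platelets. Gp1bb, Gp5 and Gp6 had 0 counts in every library, and Ppbp stayed at or below 0.200 CPM. The summed list of 7 was at 3.53 to 8.00 CPM in control and 2.66 to 3.76 CPM in diabetic libraries. Gp9, the highest of it, was at 1.22 to 5.55 CPM in control and 1.09 to 1.80 CPM in diabetic libraries. Cfd is also a gene of fat cells, and Adipoq, Plin1, Lep and Retn had 0 counts in every library, with Fabp4 at or below 0.204 CPM. Lyve1 and Stab1 are also genes of lymphatic endothelium. There Ccl21 had 0 counts, Flt4 stayed at or below 0.756 CPM, and the list of 5 was at 9.29 to 35.9 CPM in control and 10.5 to 16.2 CPM in diabetic libraries. Siglech was also listed at 0 in these sorted microglia. Whether a 0 in every library, here and in the lists below, means no RNA or a symbol that was not counted cannot be told. The part of platelets, fat cells and lymphatic endothelium in the levels of these genes was not tested.

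Blood myeloid cells share CD11b. The neutrophil list of 10 summed to 303 to 383 CPM in control and 307 to 374 CPM in diabetic libraries. Csf3r alone, also a gene of microglia, held 301 to 370 CPM in control and 278 to 299 CPM in diabetic libraries. Of the 5 neutrophil genes that passed the filter, 4 had a log2 fold change above 0, beside 50.3% of all genes, and 1 (Csf3r) had it below 0. S100a8 and S100a9 were at 0 to 0.851 and 0.214 to 5.58 CPM in control and at 1.43 to 10.2 and 14.8 to 52.9 CPM in diabetic libraries, so both were higher in every diabetic library than in any control, and Lcn2 had 0 counts. The monocyte list of 8 summed to 194 to 280 CPM in control and 211 to 282 CPM in diabetic libraries. Ccr2 was listed at 0 in all libraries, and Plac8 was at 2.00 to 4.50 CPM in control and 5.81 to 16.3 CPM in diabetic libraries. Of the 6 monocyte genes that passed the filter, 4 had a log2 fold change above 0, beside 50.3% of all genes. The other 2 had it below 0, Fn1 (-0.21) and Itga4 (-0.24), and the median of the 6 was 0.10. The part of these cells in the levels of the 10 genes was not tested.

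The summed level of each of 15 lists of other cells and states was also set against the profile within groups, over the same 9 libraries. The r ran from -0.61 for fat cell genes, which were near 0, and -0.59 for erythroid genes to 0.56 for monocyte genes. It was -0.55 for cell isolation response genes, -0.54 for photoreceptor genes, -0.084 for microglia identity genes and -0.13 for the total count. Erythroid genes summed to 0 to 8.22 CPM in control and 0 to 11.1 CPM in diabetic libraries, and were at 0 in control 3, control 6 and diabetic 1. Control 3, the control with the highest summed border macrophage genes, had the lowest sums of isolation response genes (3603 CPM, other controls 6298 to 24501 CPM) and of photoreceptor genes (220 CPM, other controls 544 to 1201 CPM). Diabetic 1 did not share this, with 13828 CPM of isolation response genes where the other diabetic libraries had 10919 to 16328 CPM. Photoreceptor genes summed to 608, 1690, 333 and 430 CPM in diabetic 1, 2, 4 and 5. Their highest diabetic sum was thus in diabetic 2, which had the lowest sum of border macrophage genes in its group. The part of isolation response and photoreceptor genes in the co-variation was not tested. Of the other lists, fibroblast genes Col1a2, Dcn and Lum, lymphocyte genes Cd3g, Nkg7 and Ms4a1 and mast cell genes Tpsab1 and Cma1 had 0 counts in every library.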

How the data were processed

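CD11b-sorted retinal cells of 9 rat libraries were measured by RNA-seq. The authors deposited raw counts per gene symbol (counting program and strand setting not given in the sources used here). TopHat2 and the Rnor_6.0 build are named in the submitters' processing notes. The authors' deposited table holds per gene its log2 ratio and p-value, raw and adjusted; edgeR is named in the same notes. The assemblies were made with StringTie 1.2.4 on the Ensembl Rnor6 annotation, per the file headers, and hold TPM values within each library.

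Counts were filtered with filterByExpr (minimum count 10, minimum total 15), given TMM scaling and fitted by quasi-likelihood in edgeR 4.0.16 (no covariate, R 4.3.3), with Benjamini-Hochberg adjustment over 11748 genes and a threshold of 0.05. DESeq2 1.42.0 was an alternative. Standard errors were derived from each log2 fold change and its two-sided p through the normal quantile. The edgeR fit and the correlations were tested on simulated data. Exon-weighted TPM was summed over both strands. Promoters came from RefSeq's GRCr8 table.

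The 10 genes and all lists were chosen with earlier results of these data known. The rule for named genes took all 10, up to 6 other border macrophage genes with the lowest p, the 8 genes most like the profile (1 of them is not reported here), and the top or absent genes of each marker list. Further genes (among them S100a8, S100a9, Plac8, Timd4, Vsig4, Dab2 and Siglec1) were named after their values were seen. No library was left out, and no column was unmatched.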

Additional observations from a re-analysis of the deposited data

Results flagged for a closer look

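In a group of 5 libraries, a value was singled out when its gap to the nearest of the others exceeded Dixon's 95% critical share of the range of the group (groups of 4 libraries were read likewise). Of 34 groups of values read, 3 met this, where chance gives about 1 in 20, and all 3 were the value of control 3. Lyve1 was at 364 CPM in control 3 and at 139 to 183 CPM in the other controls, a gap of 0.803 of the range. On the TPM scale it did not stand alone, with 47.4 TPM in control 3, 46.1 TPM in control 6 and 27.8 to 35.8 TPM in controls 1, 4 and 5. Cfd was at 113 CPM in control 3 and at 52.8 to 66.1 CPM in the other controls (gap 0.778), or 73.1 TPM against 35.2 to 46.4 TPM. Msr1, of the other border macrophage genes, was at 39.3 CPM there and at 26.9 to 29.8 CPM elsewhere (gap 0.768).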

How the results depend on the processing

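All 10 genes had a log2 fold change above 0 in each of the 160 results under alternatives, from 0.32 to 1.80, and 11 of these passed the threshold. The number of the 10 genes called was 0 as reported, 7 by the DESeq2 Wald test, and 1 with upper-quartile factors, without factors, or without a filter on low counts; it was 0 to 1 when 1 library was left out, with Colec12 called without diabetic 2. Of the other border macrophage genes 4 were called by DESeq2, beside 4.88% of the genes it gave an adjusted p, and 0 otherwise. The count over all genes was 8, and became 583 (DESeq2), 42 (no filter), 31 (upper-quartile) and 29 (no factors, which moved the median of all genes to 0.12). Leaving out 1 library gave 0 (control 4, diabetic 1 or 4) to 75 (control 1) genes, with 1 for control 3 or 5, 2 for diabetic 2, and 6 for control 6 or diabetic 5. Without control 3 and diabetic 1 together, added after the data were seen, it was 0, with 1754 genes at an unadjusted p below 0.05. Same-numbered libraries had deviations that correlated at 0.20, -0.11 and 0.016, so the numbers were not taken as pairs. With the replicate block 0 genes and 0 of the 10 were called, with 1129 and 9 at an unadjusted p below 0.05, and the median log2 fold change of the 10 was 1.36. The median within-group r stayed between 0.56 and 0.75. Under the same alternatives the r of Cd163 with Mrc1 was between 0.28 and 0.69, with exact permutation p-values of 0.0816 or more. Without control 4 and diabetic 1 together, the r of this pair was 0.22 (exact permutation p = 0.826). Depth limits Ms4a7 and Pf4 most, with as few as 51 and 79 counts in a library.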
